A study of Homo sapiens with 9 samples.

Results

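The genes described here are 32 regulators and transcriptional targets of the tumor suppressor p53, profiled in RBE cells by sequencing of poly(A) RNA. Members were taken by symbol from a set list, and each matched 1 row of the deposited table, giving 32 of its 36225 genes. RBE is an established human cell line from a bile duct cancer of the liver (intrahepatic cholangiocarcinoma), and the series title places it in a study of mutant IDH1, the deubiquitinase JOSD2 and the coactivators YAP and TAZ. All 9 libraries came from cells infected with lentivirus, and the labels name no other treatment. The control group carried a scramble hairpin, the shIDH1 group a hairpin against IDH1, and the shJOSD2 group a hairpin against JOSD2, with 3 libraries each. A single cell line and, as far as the labels say, 1 hairpin per gene stand behind each group. Nothing in the labels tells if replicate libraries stem from separate infections. The p-values thus rest on the spread among these libraries alone, which may be technical.

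The protein p53 is a transcription factor that is kept at low levels by the ubiquitin ligase MDM2 and its partner MDM4, and that accumulates when DNA damage or other stress interrupts this control. It then binds response elements made of a pair of short consensus units and activates genes for cell cycle arrest, DNA repair, antioxidant defence and cell death. Several of its targets, MDM2 and the phosphatase gene PPM1D among them, feed back to restrain it, and many targets also respond to other stress-activated factors.

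Because the list is defined by p53 regulation, the promoter windows of its members were searched for the p53 consensus, a pair of 10-base units separated by 0 to 13 bases, with at most 2 mismatches in all. Windows ran from 250 bases before to 50 bases after each RefSeq start (GRCh38.p14) and were at hand for 25 of the 32 members. The consensus unit is its own reverse complement, so 1 pass covers both strands. A match was present for 7 of these 25 members (28.0%) and for 9.53% of 27305 gene symbols with a window. Units placed side by side were present for 4 of 25 members (16%) and for 0.82% of all symbols. A match is a description of the letters, binding was not measured, and a window without one says nothing about p53 at that gene. The 250 bases before a start are shown for MDM2, the main inhibitor of p53, and for CCNG1, the member that moved furthest in opposite directions under the hairpins. For AEN, DDB2 and FAS, the other members with side-by-side units, only the matched site follows. Capitals mark the consensus units and lower case the other bases, all on the plus strand and written 5′ to 3′.
MDM2, chr12:68808767-68809016: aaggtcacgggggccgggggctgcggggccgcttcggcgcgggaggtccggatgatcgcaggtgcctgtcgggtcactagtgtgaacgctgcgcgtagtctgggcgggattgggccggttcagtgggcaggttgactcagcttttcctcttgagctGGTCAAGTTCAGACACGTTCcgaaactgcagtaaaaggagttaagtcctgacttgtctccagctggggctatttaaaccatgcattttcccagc
CCNG1, chr5:163437321-163437570: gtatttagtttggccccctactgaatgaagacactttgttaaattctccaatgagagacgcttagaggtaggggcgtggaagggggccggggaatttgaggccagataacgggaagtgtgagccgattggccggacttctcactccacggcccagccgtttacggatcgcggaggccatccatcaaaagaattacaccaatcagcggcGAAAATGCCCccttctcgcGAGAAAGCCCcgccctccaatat
AEN, chr15:88621306-88621325: GGGCTTGCCCGGGCATGTGG
DDB2, chr11:47214979-47214999: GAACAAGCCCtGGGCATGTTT
FAS, chr10:88991309-88991328: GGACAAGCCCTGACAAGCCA

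The MDM2 match, at chr12:68808923-68808942, ended 75 bases before the nearer RefSeq start and had 2 mismatches. It lay inside the MDM2 gene as deposited (68808177 to 68850686), in an intron of 7 of its 34 GENCODE 29 transcripts, in no exon, and outside the other 27. The CCNG1 match had 2 mismatches and a gap of 9 bases, and lay upstream of all 13 GENCODE 29 transcripts of the gene. The DDB2 match, 6 to 26 bases after a start, had 0 mismatches and a gap of 1 base, and overlapped an exon of 2 and an intron of 2 of 16 transcripts. Another reading of the DDB2 window placed units side by side within the 2 mismatches allowed. The FAS match shown lay in an intron of 11 and an exon of 2 of 20 transcripts, and the AEN match in an exon of 1 of 6. A further FAS match at another start, at chr10:88990839-88990869, had 2 mismatches and a gap of 11 bases. It overlapped an exon of 8 of the 20 transcripts. Matches with wider gaps were also found for FDXR and SESN1, and the map of matches shows each one relative to its start.

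**Figure D1:**
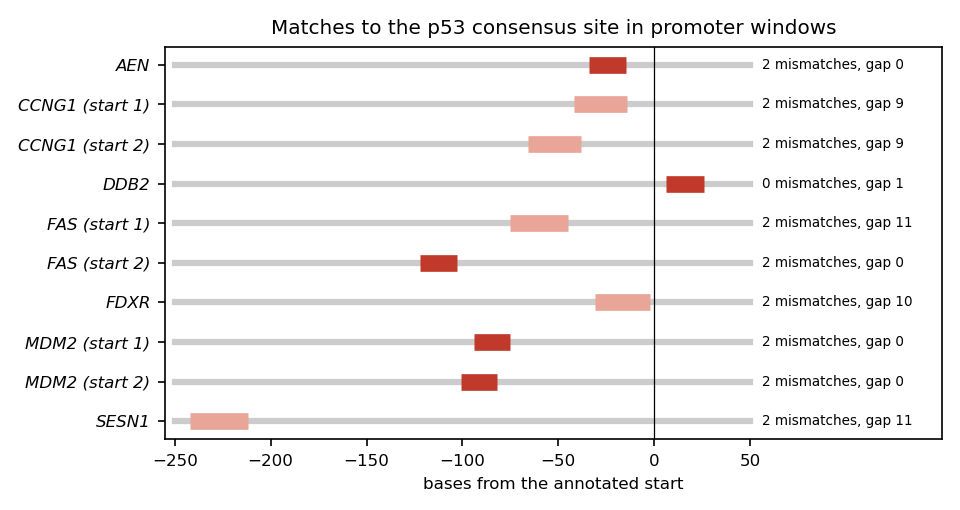
Position of matches to the p53 consensus in the promoter windows of 7 members. The horizontal axis is the distance in bases from the annotated start (vertical line), grey bars are the windows, dark red bars are matches with a gap of 0 or 1 base and pale bars those with a wider gap; the DDB2 match is the one that lies after its start.

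The libraries held 66036276 to 71612713 counts each, at about 4 counts per fragment as judged from the spacing of low values. IDH1 stood at 44.0 ± 4.44 FPKM (a level corrected for gene length and depth; SD, n = 3) in control, 12.6 ± 0.446 in shIDH1, and 34.5 ± 1.56 in the shJOSD2 libraries. JOSD2 stood at 6.37 ± 0.260, 1.68 ± 0.174 and 0.795 ± 0.101 FPKM in the same order. Both IDH1 and JOSD2 were called lower with each hairpin (edgeR adjusted p at most 8.66e-05). The IDH1 change in shJOSD2 cells was the smallest, at a log2 of -0.50 ± 0.07. The 10 biliary markers summed to 1680 to 1940 FPKM in control, 2070 to 2120 in shIDH1, and 1600 to 1650 in the shJOSD2 libraries. The 8 fibroblast markers summed to 13.9 to 16.7 FPKM in control, 34.4 to 36.4 in shIDH1, and 32.4 to 33.5 in the shJOSD2 libraries, with 4 and 2 of 5 tested markers called higher and DCN, LUM and FAP too low to test. The 10 hepatocyte markers summed to 45.2 FPKM in control replicate 1, 89.8 and 93.7 in the other controls, 111 to 117 in shIDH1 and 66.3 to 68.2 in shJOSD2 libraries. These sums do not stand for a common shift, as 3 hepatocyte markers were called higher and 4 lower with each hairpin. Their log2 changes ran from -3.54 to 4.65 in shIDH1 cells and from -3.12 to 1.91 in shJOSD2 cells. The 7 noncoding RNAs listed for RNA quality (MALAT1, NEAT1, KCNQ1OT1, MEG3, RMRP, RN7SK and RN7SL1) are not all nuclear, and are not taken as a measure of it. They summed to 24.2 to 33.9 FPKM in control, 39.9 to 41.7 in shIDH1, and 41.7 to 42.7 in the shJOSD2 libraries. Of the 5 tested, 2 were called higher and 1 lower in shIDH1 cells, and 2 higher and 0 lower in shJOSD2 cells. The 8 leukocyte markers summed to 32.3 to 49.3, 26.1 to 29.8 and 26.2 to 40.7 FPKM in the same order, and the 6 endothelial markers to 0.688 to 1.16 FPKM over all libraries. The part of these marker genes in the members' changes was not tested. In bulk RNA, fewer cells of a type and less RNA per cell cannot be told apart.

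In shIDH1 cells most members moved, and the majority rose: 20 of the 31 tested members were higher than in control, 7 were lower and 4 did not pass the test. The 27 called compare with 50.1% of all tested genes. A gene was called at a Benjamini-Hochberg adjusted p under 0.05 in edgeR's quasi-likelihood test over all 21492 tested genes, of which 24.5% were called higher and 25.6% lower in this comparison. The rises included the stress genes GADD45A and SESN2 and the death gene BBC3, each about 4-fold, and the deepest fall was that of TRIAP1, to 0.317 of its control FPKM. A change of at least 2-fold was called for 9 members, 8 up and 1 down, against 19.2% of all tested genes. The median log2 change was 0.52 over the tested members and 0.01 over all tested genes. The FPKM of the 3 shIDH1 libraries lay wholly above the controls for 17 members and wholly below for 7, against 28.6% and 28.3% of all tested genes (56.9% in either direction).

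In shJOSD2 cells the members moved less far and almost in 1 direction: 19 were higher, 1 was lower and 11 did not pass the test, where 18.2% of all tested genes were called higher and 20.1% lower (38.3% in all). TP53INP1 alone was called with at least a 2-fold change, against 10.8% of all tested genes, and TP53I3 was the member that fell. The median log2 change was 0.40 over the members and 0.03 over all tested genes. Library ranges were separate upward for 21 members and downward for 1, against 34.2% and 17.4% of all tested genes (51.7% in all). The scaling matters here: without TMM factors, which correct for composition, the median of all genes stood at 0.18, all-gene calls were 5638 higher and 2934 lower instead of 3907 and 4330, and member calls were 21 higher and 1 lower. FPKM values carry no such factor, so they place shJOSD2 libraries slightly above the fitted changes. Both comparisons share the same control libraries, and agreement between them is therefore not independent.

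**Figure D2:**
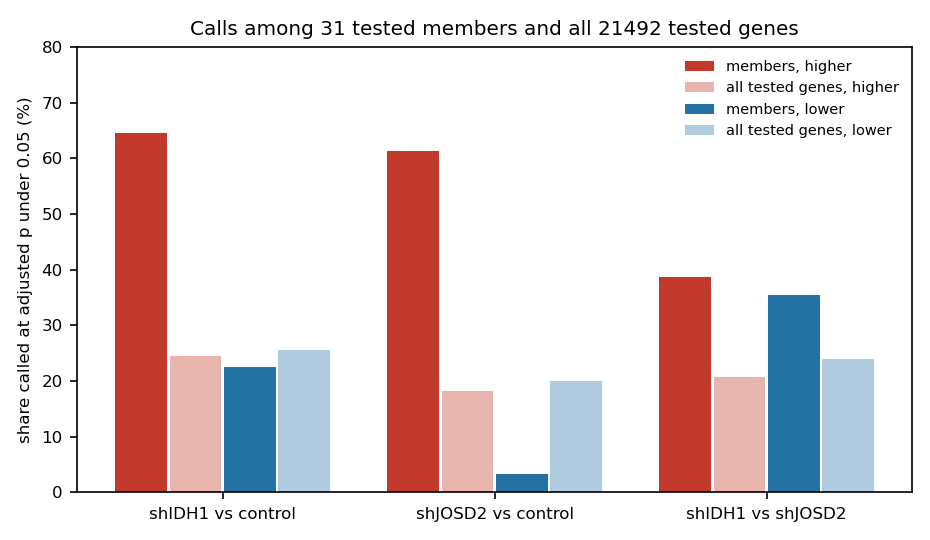
Share of the 31 tested members and of all 21492 tested genes called higher or lower at an adjusted p under 0.05, in percent, for each of the 3 comparisons. The bars for members called higher stand above those of all genes in each comparison, while 7 members are called lower with shIDH1, 1 with shJOSD2, and 11 in the direct comparison.

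A direct test between the hairpins called 12 members higher in shIDH1 than in shJOSD2 cells and 11 lower, against 20.8% and 24.0% of all tested genes (44.8% in all). The median log2 difference was -0.04 over the members and -0.06 over all tested genes. A difference of at least 2-fold was called for 9 members, 7 higher and 2 lower, against 14.2% of all tested genes. Ranges were separate upward for 11 and downward for 15 members, against 20.7% and 37.7% (58.4% in all). Without TMM factors, all-gene calls in this comparison were 3316 higher and 6653 lower instead of 4479 and 5156, and members were called 12 higher and 13 lower.

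**Figure D3:**
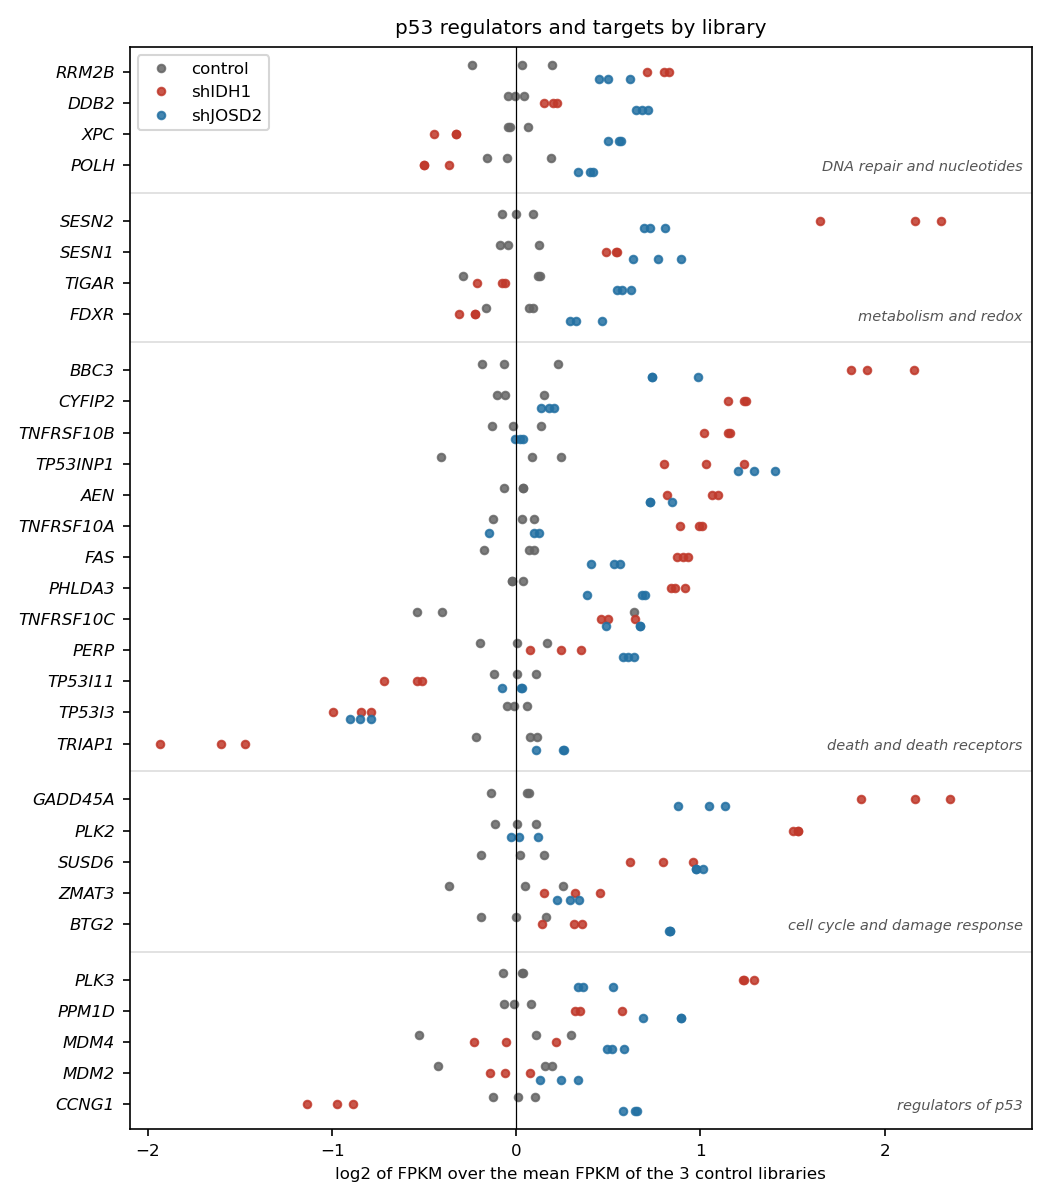
Every library's FPKM relative to the mean of the 3 control libraries, on a log2 scale, for the 31 tested members by role; each point is 1 library (grey control, red shIDH1, blue shJOSD2). GADD45A, SESN2 and BBC3 lie furthest to the right in shIDH1 libraries and TRIAP1 and CCNG1 furthest to the left, whereas TP53INP1 lies furthest to the right in shJOSD2 libraries.

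Among the 5 regulators of p53, 2 rose and 1 fell in shIDH1 cells and 3 rose in shJOSD2 cells, while MDM2 and MDM4 passed the test in neither. The called share was 60% in each comparison, against 50.1% and 38.3% of all tested genes. MDM2 (ENSG00000135679) encodes the ligase that marks p53 for degradation and is itself a p53 target. Its FPKM was 11.4, 7.44 and 11.1 in the control, 10.5, 9.56 and 9.04 in the shIDH1, and 11.8, 12.6 and 10.9 in the shJOSD2 libraries. Control replicate 2 was the lowest. The control range overlapped both hairpin groups, and the shIDH1 libraries lay just below the shJOSD2 libraries. The log2 change was -0.04 ± 0.12 (SE) in shIDH1 cells (95% interval -0.30 to 0.22; edgeR adjusted p = 0.824) and 0.10 ± 0.12 in shJOSD2 cells (-0.16 to 0.36; edgeR adjusted p = 0.581). Without control replicate 2, MDM2 was called lower in shIDH1 cells, at -0.20 (edgeR adjusted p = 0.0476). MDM4, the MDM2 relative that blocks the activation domain of p53, was low throughout, at 1.10, 0.619 and 0.962 FPKM in control, 1.04, 0.859 and 0.762 in shIDH1, and 1.34, 1.26 and 1.28 in the shJOSD2 libraries. The shJOSD2 values lay above the others without overlap, yet the log2 change of 0.39 ± 0.17 did not pass the test (95% interval 0.01 to 0.77; edgeR adjusted p = 0.0971), and it did without control replicate 1, at 0.56 (edgeR adjusted p = 0.0278). It also passed without TMM factors, at 0.54 (edgeR adjusted p = 0.0338), and with a stricter filter on low counts, at 0.42 (edgeR adjusted p = 0.0478), but under no other alternative. Between the hairpins MDM4 differed by -0.40 (edgeR adjusted p = 0.0787). This difference was called at -0.36 in a fit of only the 2 groups compared (edgeR adjusted p = 0.0272) and at -0.40 without control replicate 2 (edgeR adjusted p = 0.0193). It was also called without TMM factors, with counts divided by 4 and with the stricter filter, at -0.55, -0.40 and -0.41 (edgeR adjusted p = 0.0254, 0.0487 and 0.045). In limma on log2(FPKM + 1) it was called at -0.28 (limma adjusted p = 0.0435), and it did not pass under the remaining alternatives.

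PPM1D and CCNG1 act on this control loop through phosphatases. PPM1D (ENSG00000170836) encodes the phosphatase WIP1, which removes activating phosphates from p53 and from damage kinases. It rose from 5.69, 5.50 and 6.07 FPKM in control to 7.32, 8.55 and 7.18 in shIDH1 and 9.25, 10.7 and 10.7 in shJOSD2 libraries. The 3 groups formed separate ranges with shJOSD2 the highest. The log2 changes were 0.42 ± 0.09 (edgeR adjusted p = 0.00146) and 0.68 ± 0.09 (edgeR adjusted p = 5.95e-05). The difference between hairpins, -0.26 ± 0.09 (edgeR adjusted p = 0.0248), did not pass without shIDH1 replicate 1 or 3 or shJOSD2 replicate 2 or 3, with adjusted p of 0.0951, 0.0955, 0.101 and 0.0954. This difference also did not pass without the filter on low counts (edgeR adjusted p = 0.0519). CCNG1 (ENSG00000113328; GRCh38 chromosome 5, 163437569 to 163446151, plus strand) encodes cyclin G1, which recruits phosphatase 2A to MDM2. It stood at 53.1, 45.3 and 49.8 FPKM in control, fell to 26.7, 25.2 and 22.5 in shIDH1, and rose to 73.9, 77.9 and 77.1 in shJOSD2 libraries. No library of any group overlapped another group. The log2 change was -1.0 ± 0.06 in shIDH1 cells (edgeR adjusted p = 8.22e-08) and 0.48 ± 0.06 in shJOSD2 cells (edgeR adjusted p = 8.35e-05), and the hairpins differed by -1.47 ± 0.07 (edgeR adjusted p = 6.73e-09).

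PLK3 (ENSG00000173846) encodes a polo-like kinase that phosphorylates p53 under stress. It stood at 9.25, 9.26 and 8.61 FPKM in control, 21.3, 22.1 and 21.2 in shIDH1, and 11.6, 11.4 and 13 in the shJOSD2 libraries. All 3 groups were separate, with the shIDH1 libraries the highest. The log2 change was 1.25 ± 0.07 in shIDH1 cells (edgeR adjusted p = 2.6e-08). In shJOSD2 cells it was 0.26 ± 0.07 (edgeR adjusted p = 0.0111), which did not pass without shJOSD2 replicate 3, at 0.21 (edgeR adjusted p = 0.0516), nor with control replicate 1 as the lone control, at 0.26 (edgeR adjusted p = 0.066).

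All 5 members of the cell cycle and damage response group rose in shIDH1 cells and 3 of 5 in shJOSD2 cells. Of all tested genes, 24.5% and 18.2% were called higher. GADD45A (ENSG00000116717; chromosome 1, 67685201 to 67688334, plus strand), whose product binds CDK1 and PCNA in growth arrest, had the largest rise of any member. Its FPKM was 12.7, 11.0 and 12.6 in control, 44.2, 54.3 and 61.9 in shIDH1, and 22.2, 26.5 and 25.0 in the shJOSD2 libraries. Groups did not overlap, and the shIDH1 libraries spread widest. GADD45A changed by a log2 of 2.15 ± 0.12 in shIDH1 cells (edgeR adjusted p = 2.41e-08) and 0.88 ± 0.12 in shJOSD2 cells (edgeR adjusted p = 8.29e-05), with a difference of 1.27 ± 0.12 between hairpins (edgeR adjusted p = 2.15e-06). PLK2 (ENSG00000145632), a polo-like kinase of the G1 to S transition and centriole duplication, stood at 59.3, 50.8 and 55.3 FPKM in control, 159, 159 and 156 in shIDH1, and 54.1, 59.9 and 55.7 in the shJOSD2 libraries. The shIDH1 values were tight and far above the rest, while control and shJOSD2 overlapped. Its log2 change was 1.52 ± 0.06 in shIDH1 cells (edgeR adjusted p = 2.25e-09) and -0.11 ± 0.06 in shJOSD2 cells (95% interval -0.24 to 0.02; edgeR adjusted p = 0.174), the latter turning to 0.04 without TMM factors.

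BTG2 (ENSG00000159388), an antiproliferative gene that promotes mRNA deadenylation, moved more in shJOSD2 than in shIDH1 cells. Its FPKM was 14.4, 11.3 and 12.9 in control, 14.2, 16 and 16.5 in shIDH1, and 23.0, 22.9 and 23.0 in the shJOSD2 libraries. The shJOSD2 libraries were nearly equal and above all others, and shIDH1 replicate 1 fell within the control range. The log2 change was 0.69 ± 0.09 in shJOSD2 cells (edgeR adjusted p = 4.72e-05) and 0.27 ± 0.09 in shIDH1 cells (edgeR adjusted p = 0.0176). The latter did not pass without control replicate 2 or shIDH1 replicate 2 or 3, with adjusted p of 0.0716, 0.0649 and 0.0824. It also did not pass in limma on log2(FPKM + 1) without the filter on low counts (limma adjusted p = 0.0605). With control replicate 1 alone as control it was 0.14 (edgeR adjusted p = 0.322).

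SUSD6 and ZMAT3 are less studied p53 targets. SUSD6 (ENSG00000100647), which encodes a sushi-domain membrane protein induced by DNA damage, stood at 5.47, 4.31 and 4.99 FPKM in control, 9.56, 7.55 and 8.55 in shIDH1, and 9.67, 9.94 and 9.66 in the shJOSD2 libraries. Both hairpin groups lay above control and differed little from each other. The log2 changes were 0.80 ± 0.09 (edgeR adjusted p = 1.01e-05) and 0.84 ± 0.09 (edgeR adjusted p = 1.45e-05), and the interval of the difference between hairpins was -0.24 to 0.15. ZMAT3 (ENSG00000172667), a zinc finger RNA-binding protein that regulates splicing, was called only weakly, at 0.31 ± 0.11 in shIDH1 cells (edgeR adjusted p = 0.0377). Its libraries overlapped, from 5.36 to 8.22 FPKM in control and from 7.65 to 9.45 in shIDH1. Without control replicate 2 the change was 0.17 (edgeR adjusted p = 0.123), and the call was also lost without control replicate 3 or shIDH1 replicate 1 or 2, with adjusted p of 0.0531, 0.137 and 0.0909. With every control and shIDH1 library kept, the change did not pass without TMM factors or without the filter on low counts (edgeR adjusted p = 0.0557 and 0.0837). It did not pass in limma (limma adjusted p = 0.0787 to 0.169) or in a fit of only the 2 groups compared (edgeR adjusted p = 0.0532). With control replicate 1 alone as control it was 0.09 (edgeR adjusted p = 0.518).

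Of the 13 tested genes of the death group, 9 rose and 3 fell in shIDH1 cells, and 6 rose and 1 fell in shJOSD2 cells. Called shares in the group were 92.3% and 53.8%, against 50.1% and 38.3% of all tested genes. BBC3 (ENSG00000105327; chromosome 19, 47220822 to 47232766, minus strand) encodes PUMA, a BH3-only protein that releases mitochondrial apoptosis. Its FPKM was 6.14, 4.60 and 5.00 in control, 18.5, 23.4 and 19.6 in shIDH1, and 8.72, 8.73 and 10.4 in the shJOSD2 libraries. The 3 groups were separate and ordered control, shJOSD2, shIDH1. BBC3 changed by a log2 of 1.96 ± 0.12 in shIDH1 cells (edgeR adjusted p = 4.97e-08) and 0.68 ± 0.12 in shJOSD2 cells (edgeR adjusted p = 0.000607), with a difference of 1.29 ± 0.12 (edgeR adjusted p = 2.13e-06). AEN (ENSG00000181026), an apoptosis-enhancing nuclease, showed the same order, with 19.5, 20.9 and 20.9 FPKM in control, 36.0, 42.6 and 43.6 in shIDH1, and 33.8, 33.7 and 36.6 in the shJOSD2 libraries. The hairpin groups overlapped at their edges, between shIDH1 replicate 1 and shJOSD2 replicate 3. AEN rose by a log2 change of 0.99 ± 0.08 in shIDH1 cells (edgeR adjusted p = 6.8e-07) and by 0.62 ± 0.08 in shJOSD2 cells (edgeR adjusted p = 8.58e-05). The difference between hairpins was 0.38 ± 0.08 (edgeR adjusted p = 0.00216) and 0.22 without TMM factors (edgeR adjusted p = 0.0292). It did not pass in limma on log2(FPKM + 1) without the filter on low counts, at 0.22 (limma adjusted p = 0.0632).

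Of the 4 receptors in the death group, 2 rose with the IDH1 hairpin and did not pass the test with the JOSD2 hairpin, while FAS was called higher with both, as BBC3 was. TNFRSF10B (ENSG00000120889), the TRAIL receptor DR5, stood at 64.9, 54.0 and 58.4 FPKM in control, 120, 131 and 132 in shIDH1, and 58.8, 60.5 and 59.9 in the shJOSD2 libraries. TNFRSF10A (ENSG00000104689), the TRAIL receptor DR4, stood at 15.5, 13.3 and 14.8, at 26.8, 28.8 and 29.2, and at 13.1, 15.8 and 15.5 FPKM in the same order. For both receptors the shIDH1 libraries were far above the rest, and control and shJOSD2 overlapped. The log2 changes in shIDH1 cells were 1.11 ± 0.07 for TNFRSF10B (edgeR adjusted p = 4.49e-08) and 0.96 ± 0.08 for TNFRSF10A (edgeR adjusted p = 7.73e-07). In shJOSD2 cells they were -0.13 ± 0.07 (95% interval -0.27 to 0.01; edgeR adjusted p = 0.145) and -0.12 ± 0.08 (-0.30 to 0.05; edgeR adjusted p = 0.269), and without TMM factors they were 0.02 and 0.03. The direct differences between hairpins were 1.24 ± 0.07 for TNFRSF10B (edgeR adjusted p = 3.12e-08) and 1.08 ± 0.08 for TNFRSF10A (edgeR adjusted p = 4.18e-07).

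FAS, the receptor for the FAS ligand, rose with both hairpins. It (ENSG00000026103; chromosome 10, 88990531 to 89017059, plus strand) stood at 10.8, 8.93 and 10.6 FPKM in control, 19.3, 18.5 and 18.9 in shIDH1, and 13.4, 14.6 and 14.9 in the shJOSD2 libraries. The 3 groups were separate. The log2 changes were 0.90 ± 0.07 (edgeR adjusted p = 2.39e-07) and 0.35 ± 0.07 (edgeR adjusted p = 0.00117), and the difference was 0.55 ± 0.07 (edgeR adjusted p = 2.18e-05). In GENCODE 29 FAS shares 8.93% of its exon bases with ACTA2 on the opposite strand, and reads there cannot be told apart without knowing the strand setting of the counts. TNFRSF10C (ENSG00000173535), a decoy receptor that binds TRAIL without signalling, was low, at 1.21, 2.49 and 1.10 FPKM in control, 2.26, 2.5 and 2.20 in shIDH1, and 2.55, 2.24 and 2.55 in the shJOSD2 libraries. Control replicate 2 stood with the hairpin libraries. No call was made at 0.52 ± 0.28 and 0.45 ± 0.28 (edgeR adjusted p = 0.15 and 0.24), whereas without control replicate 2 the changes were 1.02 (edgeR adjusted p = 0.000908) and 0.95 (edgeR adjusted p = 0.00227). TNFRSF10C also shares 26.0% of its exon bases with a neighbouring noncoding gene on the same strand, so its level is uncertain.

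PHLDA3 and CYFIP2 were further death genes that rose in shIDH1 cells. PHLDA3 (ENSG00000174307), a PH-domain protein that competes with AKT for membrane lipids, stood at 27.1, 26.0 and 26.0 FPKM in control, 47.3, 49.9 and 47.9 in shIDH1, and 34.5, 42.3 and 42.8 in the shJOSD2 libraries. The groups were separate, and shJOSD2 replicate 1 was the lowest of its group. PHLDA3 changed by 0.87 ± 0.07 (edgeR adjusted p = 8.85e-07) and 0.45 ± 0.07 (edgeR adjusted p = 0.000458), and the hairpins differed by 0.43 ± 0.07 (edgeR adjusted p = 0.000459), or by 0.27 without TMM factors (edgeR adjusted p = 0.0098). It shares 19.1% of its exon bases with a noncoding gene on the same strand. CYFIP2 (ENSG00000055163), which encodes a subunit of the WAVE actin regulator, stood at 16.2, 14.0 and 13.6 FPKM in control, 32.4, 34.7 and 34.4 in shIDH1, and 16.5, 16 and 16.8 in the shJOSD2 libraries. Only the shIDH1 libraries of CYFIP2 stood clear of control by a wide margin. Its log2 change was 1.21 ± 0.07 in shIDH1 cells (edgeR adjusted p = 2.26e-08) and 0.02 ± 0.07 in shJOSD2 cells (95% interval -0.12 to 0.16; edgeR adjusted p = 0.852), with a difference of 1.19 ± 0.07 (edgeR adjusted p = 4.18e-08).

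TP53INP1 and PERP moved at least as far in shJOSD2 as in shIDH1 cells. TP53INP1 (ENSG00000164938), a stress protein of autophagy and p53-dependent death, stood at 6.42, 4.09 and 5.76 FPKM in control, 12.8, 11.1 and 9.46 in shIDH1, and 13.3, 14.4 and 12.5 in the shJOSD2 libraries. Both hairpin groups were above control and overlapped each other. The log2 changes were 1.04 ± 0.14 (edgeR adjusted p = 3.7e-05) and 1.16 ± 0.14 (edgeR adjusted p = 3.1e-05), and the interval of their difference was -0.41 to 0.17. PERP (ENSG00000112378), a tetraspan protein of desmosomes and apoptosis, stood at 72.1, 56.1 and 64.4 FPKM in control, 81.8, 75.9 and 67.6 in shIDH1, and 95.8, 100 and 97.9 in the shJOSD2 libraries. The shJOSD2 libraries were the highest, and shIDH1 replicate 3 lay within the control range. PERP rose by a log2 change of 0.47 ± 0.08 in shJOSD2 cells (edgeR adjusted p = 0.000497). In shIDH1 cells its change was 0.23 ± 0.08 (edgeR adjusted p = 0.0303), and the call was lost without control replicate 2 (0.15, edgeR adjusted p = 0.118), control replicate 3 (edgeR adjusted p = 0.0526) or shIDH1 replicate 1 or 2 (edgeR adjusted p = 0.118 and 0.0872). With every library kept, the change did not pass without the filter on low counts (edgeR adjusted p = 0.0565) or in limma (limma adjusted p = 0.0674 to 0.146). With control replicate 1 alone as control it was 0.09 (edgeR adjusted p = 0.467). The difference between hairpins, -0.24 ± 0.08 (edgeR adjusted p = 0.0245), did not pass without shIDH1 replicate 2 or 3 or shJOSD2 replicate 2 or 3, with adjusted p of 0.0548, 0.112, 0.0799 and 0.0567. This difference also did not pass without the filter on low counts (edgeR adjusted p = 0.058).

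The members that fell in this group were TRIAP1, TP53I3 and TP53I11. TRIAP1 (ENSG00000170855; chromosome 12, 120443964 to 120446384, minus strand) encodes a mitochondrial lipid transfer partner that protects from apoptosis. It stood at 28.5, 23.3 and 29.3 FPKM in control, 9.76, 8.92 and 7.10 in shIDH1, and 29.2, 32.4 and 32.3 in the shJOSD2 libraries. The shIDH1 values were far below all others, and control replicate 3 reached into the shJOSD2 range. TRIAP1 had a log2 change of -1.66 ± 0.11 in shIDH1 cells (edgeR adjusted p = 1.15e-07) and 0.06 ± 0.11 in shJOSD2 cells (95% interval -0.17 to 0.30; edgeR adjusted p = 0.7), a difference of -1.72 ± 0.11 (edgeR adjusted p = 1.39e-07). TP53I3 (ENSG00000115129; chromosome 2, 24077433 to 24085861, minus strand), a quinone oxidoreductase also called PIG3, fell with both hairpins. Its FPKM was 12.7, 12.1 and 11.8 in control, 7.06, 6.11 and 6.80 in shIDH1, and 6.52, 7.06 and 6.78 in the shJOSD2 libraries. Hairpin libraries overlapped each other and lay well below control. The log2 changes were -0.87 ± 0.08 (edgeR adjusted p = 2.49e-06) and -0.99 ± 0.08 (edgeR adjusted p = 2.46e-06), and the interval of the difference was -0.06 to 0.30.

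TP53I11 (ENSG00000175274), a membrane protein gene also called PIG11, spanned 4.77 to 5.57 FPKM in control, 3.15 to 3.63 in shIDH1, and 4.91 to 5.30 in the shJOSD2 libraries. Its log2 level decreased by 0.59 ± 0.08 in shIDH1 cells (edgeR adjusted p = 5.31e-05), and its change of -0.15 ± 0.08 in shJOSD2 cells did not pass (95% interval -0.33 to 0.02; edgeR adjusted p = 0.158). SPATA18, a mitochondrial quality-control gene and the single member that failed the filter on low counts, reached at most 0.0728 FPKM in any library and was listed at 0 in 5 of 9.

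**Figure D4:**
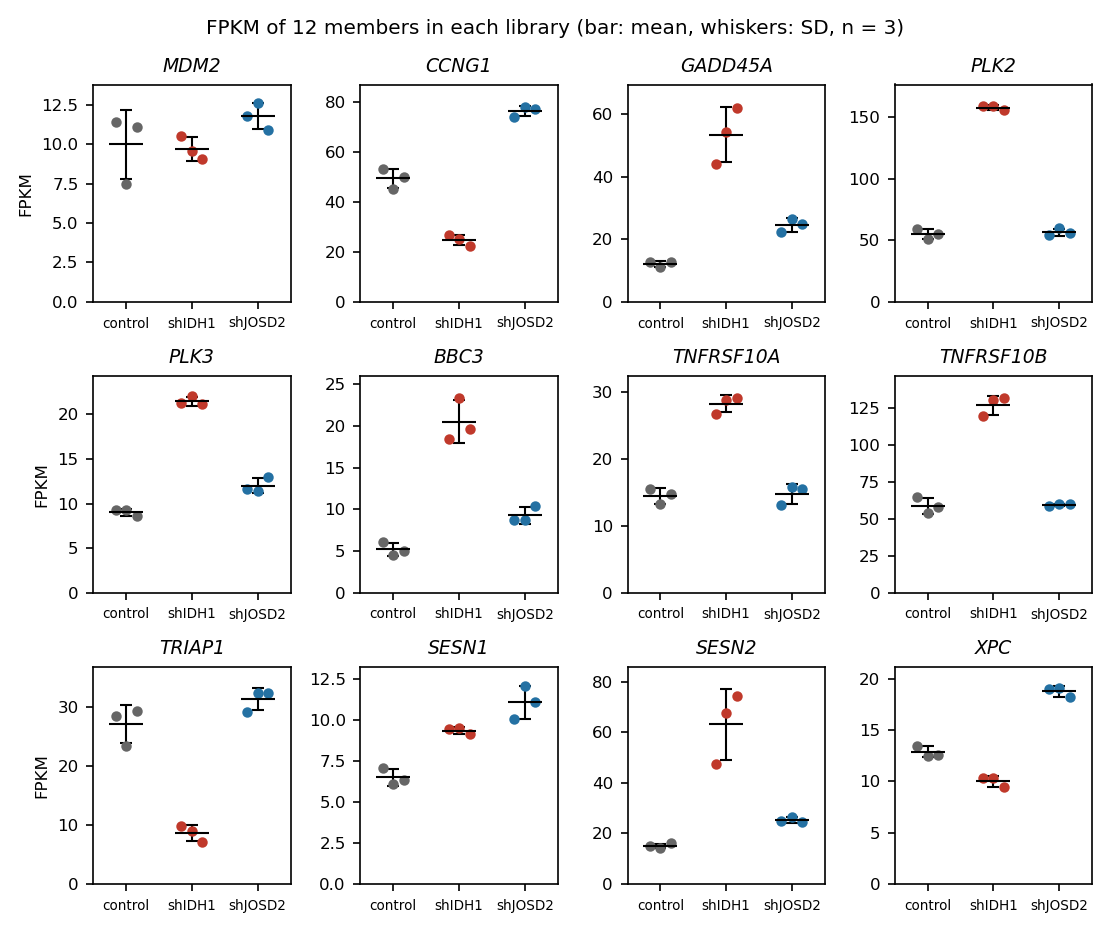
FPKM of 12 members in each library (points), with the group mean (bar) and SD (whiskers, n = 3), each panel on its own axis from 0. CCNG1 and XPC lie below control in shIDH1 and above it in shJOSD2 libraries, PLK2, TNFRSF10A and TNFRSF10B are raised in shIDH1 libraries, and the MDM2 control range overlaps both hairpin groups.

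In the metabolism and redox group SESN1 and SESN2, which encode sestrins that curb mTORC1 and support antioxidant defence, rose with both hairpins. SESN2 (ENSG00000130766; chromosome 1, 28259518 to 28282491, plus strand) stood at 15.1, 14.3 and 16.1 FPKM in control, 47.4, 67.6 and 74.6 in shIDH1, and 25.0, 26.4 and 24.4 in the shJOSD2 libraries. The groups were separate, and the shIDH1 libraries had the widest relative spread of any member in that group, 22.4% of their mean. The log2 change was 2.06 ± 0.14 in shIDH1 cells (edgeR adjusted p = 1.07e-07) and 0.59 ± 0.13 in shJOSD2 cells (edgeR adjusted p = 0.0039), with a difference of 1.47 ± 0.14 (edgeR adjusted p = 2.4e-06). SESN1 (ENSG00000080546), by contrast, stood at 7.09, 6.13 and 6.32 FPKM in control, 9.47, 9.50 and 9.13 in shIDH1, and 10.1, 12.1 and 11.1 in the shJOSD2 libraries. Its groups were separate but the hairpins were close. SESN1 changed by 0.52 ± 0.08 (edgeR adjusted p = 8.09e-05) and 0.62 ± 0.08 (edgeR adjusted p = 3.78e-05), and the interval of the difference was -0.26 to 0.06. That difference, -0.10, became -0.25 without TMM factors (edgeR adjusted p = 0.0184), and -0.22 and -0.24 in limma with pseudocounts of 1 and 0.1 (limma adjusted p = 0.0281 and 0.029), so its call rests on the scaling.

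TIGAR and FDXR were higher in shJOSD2 than in shIDH1 cells. TIGAR (ENSG00000078237), a fructose bisphosphatase that lowers glycolysis, spanned 3.54 to 4.73 FPKM in control, 3.72 to 4.14 in shIDH1, and 6.31 to 6.64 in the shJOSD2 libraries. It rose by a log2 change of 0.44 ± 0.09 in shJOSD2 cells (edgeR adjusted p = 0.00213), and its change in shIDH1 cells was -0.11 ± 0.09 (95% interval -0.31 to 0.08; edgeR adjusted p = 0.323), or -0.22 without control replicate 2 (edgeR adjusted p = 0.0169). The hairpins differed by -0.55 ± 0.09 (edgeR adjusted p = 0.000284). TIGAR shares 42.6% of its exon bases with AC008012.1, a gene on the same strand, so the counting may have split its reads. FDXR (ENSG00000161513), ferredoxin reductase of mitochondrial steroid and iron-sulfur metabolism, stood at 21.2, 21.5 and 18.0 FPKM in control, 17.3, 16.3 and 17.3 in shIDH1, and 25.3, 24.7 and 27.9 in the shJOSD2 libraries. All groups were separate, by a narrow margin between control and shIDH1. Its change of -0.26 ± 0.08 in shIDH1 cells (edgeR adjusted p = 0.0164) was lost without control replicate 1 or 2 or shIDH1 replicate 2, with adjusted p of 0.0546, 0.0666 and 0.0661. In shJOSD2 cells FDXR stood at 0.21 ± 0.08 (edgeR adjusted p = 0.0524), and the hairpins differed by -0.47 ± 0.08 (edgeR adjusted p = 0.000356). The change in shJOSD2 cells was called at 0.27 without control replicate 2 (edgeR adjusted p = 0.0191), at 0.37 without TMM factors (edgeR adjusted p = 0.00273) and at 0.35 to 0.36 in limma (limma adjusted p = 0.00422 to 0.0123). It was also called, at 0.20 to 0.24, in DESeq2, with counts divided by 4 and with the stricter filter on low counts (adjusted p = 0.049, 0.0225 and 0.0179).

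All 4 DNA repair and nucleotide members rose in shJOSD2 cells, whereas 2 rose and 2 fell in shIDH1 cells. Of all tested genes, 18.2% were called higher in shJOSD2 cells, and 24.5% higher and 25.6% lower in shIDH1 cells. XPC (ENSG00000154767; chromosome 3, 14145147 to 14178601, minus strand), the damage sensor of global nucleotide excision repair, stood at 13.5, 12.5 and 12.6 FPKM in control, 10.3, 10.3 and 9.45 in shIDH1, and 19.0, 19.1 and 18.2 in the shJOSD2 libraries. The groups were separate, with control in the middle. For XPC the log2 change was -0.36 ± 0.06 in shIDH1 cells (edgeR adjusted p = 0.000195) and 0.40 ± 0.06 in shJOSD2 cells (edgeR adjusted p = 0.000152), and the hairpins differed by -0.76 ± 0.06 (edgeR adjusted p = 4.66e-07). XPC shares 23.8% of its exon bases with an antisense gene. POLH (ENSG00000170734), the translesion polymerase eta, had the same arrangement, at 7.25, 5.70 and 6.14 FPKM in control, 4.94, 4.49 and 4.49 in shIDH1, and 8.03, 8.39 and 8.50 in the shJOSD2 libraries. Its 3 groups were separate. POLH fell by 0.45 ± 0.08 (log2) in shIDH1 cells (edgeR adjusted p = 0.000255), and the hairpins differed by -0.69 ± 0.08 (edgeR adjusted p = 9.66e-06). The rise in shJOSD2 cells, 0.24 ± 0.07 (edgeR adjusted p = 0.0237), did not pass without control replicate 2 or 3 or shJOSD2 replicate 2 or 3, with adjusted p of 0.0863, 0.0635, 0.0607 and 0.0645, and was 0.08 with control replicate 1 alone as control (edgeR adjusted p = 0.528).

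DDB2 (ENSG00000134574), the XPE subunit that recognises ultraviolet lesions ahead of XPC, stood at 29.9, 29.1 and 30.9 FPKM in control, 33.3, 35.0 and 34.4 in shIDH1, and 47.0, 48.1 and 49.2 in the shJOSD2 libraries. Its libraries varied little, and the groups were separate. DDB2 rose by 0.19 ± 0.05 in shIDH1 cells (edgeR adjusted p = 0.00776) and by 0.54 ± 0.05 in shJOSD2 cells (edgeR adjusted p = 6.7e-06), with a difference of -0.34 ± 0.05 (edgeR adjusted p = 0.000141). RRM2B (ENSG00000048392), the p53-inducible subunit of ribonucleotide reductase, went the other way, at 22.4, 16.6 and 20.0 FPKM in control, 34.2, 34.8 and 32.1 in shIDH1, and 26.8, 30.1 and 27.7 in the shJOSD2 libraries. Its groups were separate, with shIDH1 the highest. The log2 changes were 0.78 ± 0.08 (edgeR adjusted p = 6.05e-06) and 0.38 ± 0.08 (edgeR adjusted p = 0.00317). The second was 0.22 with control replicate 1 alone as control (edgeR adjusted p = 0.0755), and the difference between hairpins, 0.40 ± 0.08 (edgeR adjusted p = 0.00147), was 0.25 in limma on log2(FPKM + 1) (limma adjusted p = 0.0523).

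Sorted by their calls, the 31 tested members fell into a few arrangements, given here beside the share of all tested genes in the same arrangement. The commonest, with 8 members, was a rise with both hairpins that was larger in shIDH1 cells (3.72% of all tested genes), and it held PLK3, GADD45A, BBC3, FAS, AEN, PHLDA3, SESN2 and RRM2B. PPM1D, BTG2, PERP and DDB2 rose with both and more in shJOSD2 cells (1.18%), while SUSD6, TP53INP1 and SESN1 rose with both and were not called different between hairpins (6.11%). PLK2, TNFRSF10A, TNFRSF10B and CYFIP2 were called higher in shIDH1 cells and between hairpins but not called in shJOSD2 cells (7.69%). CCNG1, XPC and POLH were called lower in shIDH1 and higher in shJOSD2 cells (1.68%). TRIAP1, TP53I11 and FDXR were lower in shIDH1 cells than in either other group (8.95%). In the plot of both changes, TP53I3 stands alone as the member called lower with each hairpin, and it was not called between them (4.98%). TIGAR was called higher in shJOSD2 cells and lower in shIDH1 than in shJOSD2 cells (3.71%). ZMAT3 was called only in shIDH1 cells, where it was higher (2.94%). MDM2, MDM4 and TNFRSF10C were called in no comparison (36% of all tested genes).

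**Figure D5:**
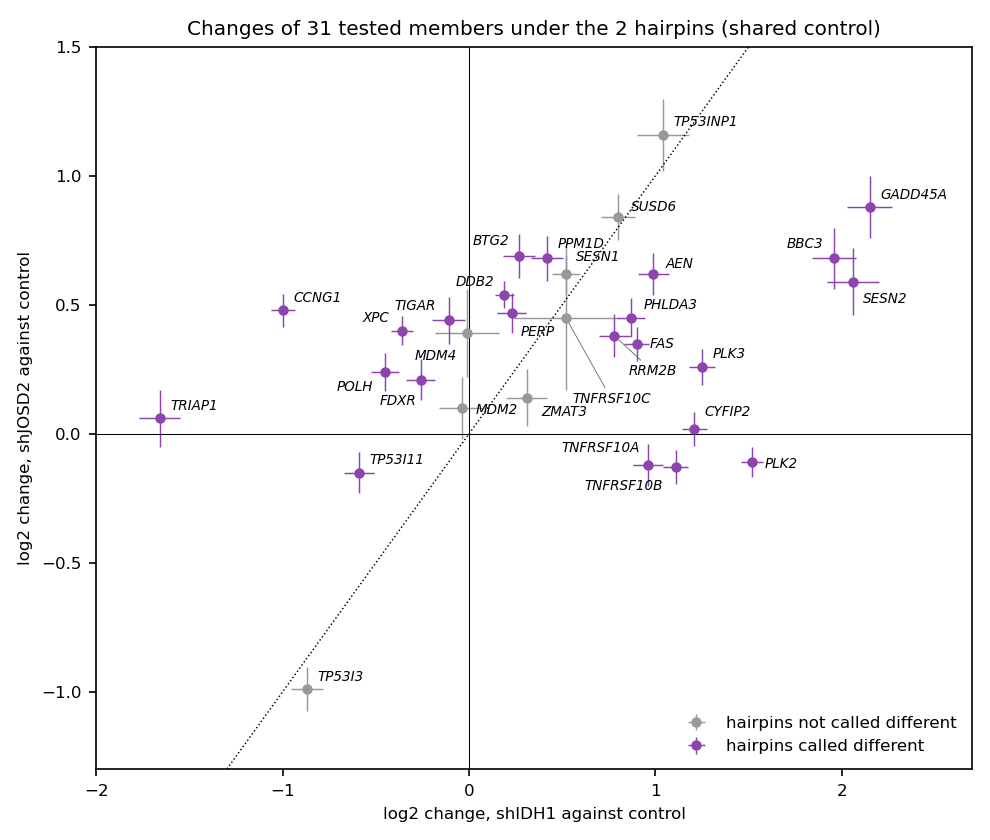
Fitted log2 change of each tested member in shIDH1 cells (horizontal axis) against shJOSD2 cells (vertical axis), with bars of 1 SE and a dotted line of equal change; purple points are members called different between hairpins, grey points are not. CCNG1, XPC and POLH lie at upper left, GADD45A, SESN2 and BBC3 at far right, TP53I3 at lower left; both axes share the control libraries.

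The members also changed in their order of abundance per transcript length. In control cells PERP (64.2 ± 8.04 FPKM; SD, n = 3), TNFRSF10B (59.1 ± 5.51), PLK2 (55.1 ± 4.25) and CCNG1 (49.4 ± 3.91) were the most abundant, and neighbours in that order overlapped. In shIDH1 cells PLK2 (158 ± 1.75 FPKM) stood first and TNFRSF10B (127 ± 6.64) second, beyond their spread, and SESN2 moved from rank 11 to 4 and GADD45A from 17 to 5. CCNG1 dropped from rank 4 to 12 and TRIAP1 from 6 to 22. In shJOSD2 cells PERP (98.1 ± 2.33 FPKM) was first and CCNG1 (76.3 ± 2.12) second. At the low end TNFRSF10C, MDM4 and SPATA18 came last in control. The sum over all members was 505 to 589 FPKM in control, 882 to 931 in shIDH1, and 725 to 770 in the shJOSD2 libraries. Spread between libraries was a median 9.53% of the mean in control, 7.34% in shIDH1, and 4.77% in the shJOSD2 libraries. Control replicate 2 was the lowest control library for 24 of 31 tested members (77.4%), against 42.0% of all tested genes. Without it, the members' median change was 0.50 in shIDH1 and 0.33 in shJOSD2 cells.

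Beyond the members, 40 other targets of p53 were all tested. In shIDH1 cells 25 were higher and 8 lower (82.5% called, against 50.1% of all tested genes). The median log2 change was 0.63, against 0.01 over all tested genes. In shJOSD2 cells 15 were higher and 13 lower (70%, against 38.3%), with medians of 0.06 and 0.03. Between the hairpins 26 were higher in shIDH1 and 7 lower (82.5%, against 44.8%), with medians of 0.42 and -0.06. CDKN1A, which encodes the CDK inhibitor p21, stood at 144, 118 and 130 FPKM in control, 198, 200 and 205 in shIDH1, and 126, 131 and 134 in the shJOSD2 libraries. The shIDH1 libraries were clear of the rest. CDKN1A changed by 0.62 ± 0.06 in shIDH1 cells (edgeR adjusted p = 3.9e-06) and by -0.15 ± 0.06 in shJOSD2 cells (edgeR adjusted p = 0.0861), the latter called without control replicate 2, at -0.20 (edgeR adjusted p = 0.0231), and 0.01 without TMM factors. BAX, the pore-forming apoptosis effector, rose from 35.6, 34.1 and 32.9 FPKM to 58.1, 66.3 and 64.9 in shIDH1 and 47.7, 48.7 and 49.7 in shJOSD2 libraries, and its groups were separate. Its changes were 0.88 ± 0.06 (edgeR adjusted p = 2.33e-07) and 0.36 ± 0.06 (edgeR adjusted p = 0.000767). GDF15, a stress-induced cytokine, changed most, from 92.2, 70.7 and 76.0 FPKM in control to 507, 636 and 671 in shIDH1, a log2 change of 2.93 ± 0.11 (edgeR adjusted p = 2.19e-09).

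Other large rises in shIDH1 cells were those of ATF3, a stress transcription factor (1.98 ± 0.19; edgeR adjusted p = 2.38e-06), PGPEP1, a pyroglutamyl peptidase (1.47 ± 0.12; edgeR adjusted p = 5.92e-07), and PTP4A1, a phosphatase (1.53 ± 0.41; edgeR adjusted p = 0.00821). PTP4A1 rested largely on shIDH1 replicate 2, and was 0.79 without it (edgeR adjusted p = 0.0477). ABHD4, NINJ1, SFN and HSPA4L were the targets that fell most in shIDH1 cells, with log2 changes of -1.29, -1.06, -0.90 and -0.75. NINJ1, the mediator of membrane rupture in dying cells, stood at 16.6 to 20.1 FPKM in control and 8.87 to 9.33 in shIDH1 libraries. Among the called targets in shJOSD2 cells, PGPEP1 (1.06 ± 0.12), CMBL (0.90 ± 0.10), EDA2R, a TNF receptor relative (0.89 ± 0.09), and CROT (0.84 ± 0.12) rose most. PTP4A1 stood at 1.10 ± 0.41 there (edgeR adjusted p = 0.052), which passed under some alternatives, such as counts divided by 4 (edgeR adjusted p = 0.0301), and not in DESeq2. EPHA2, RAP2B, TRAF4 and PANK1 had the largest falls there, with log2 changes of -0.96, -0.89, -0.64 and -0.57, and the PANK1 call did not pass without TMM factors (edgeR adjusted p = 0.0518).

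Of 24 genes of the p53 family and its upstream regulators, 22 were tested. In shIDH1 cells 5 were higher and 8 lower (59.1% called, against 50.1% of all tested genes). In shJOSD2 cells 4 were higher and 8 lower (54.5% called, against 38.3% of all tested genes). CHEK1, the checkpoint kinase that signals replication stress to p53, stood at 4.03, 4.17 and 5.38 FPKM in control, 1.58, 1.14 and 1.06 in shIDH1, and 2.00, 1.92 and 2.42 in the shJOSD2 libraries. Both hairpin groups lay well below control. Its log2 changes were -1.84 ± 0.16 (edgeR adjusted p = 1.22e-06) and -1.25 ± 0.16 (edgeR adjusted p = 6.25e-05). TP73, which encodes the p53 relative p73, was scarce, at 0.389 to 0.839 FPKM in control, 0 to 0.0711 in shIDH1, and 0.098 to 0.189 in the shJOSD2 libraries. It was called lower with both hairpins (edgeR adjusted p = 0.000865 and 0.0163), the second call being lost without control replicate 3 or shJOSD2 replicate 2 or 3 (edgeR adjusted p = 0.068, 0.0691 and 0.0603).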

How the data were processed

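RNA of 9 RBE libraries, 3 per hairpin, was analysed. Strand-marked libraries with molecular identifiers were built from poly(A) RNA and sequenced as read pairs, per the labels' protocols. The submitters' processing notes name cutadapt 1.9, HISAT2 2.0.4, UMI-tools, StringTie 1.3.4d and GRCh38. How genes were counted, with which annotation and strand setting, is not given in the sources used here. Per the file headers, the authors gave a raw count per gene and library, a whole number with no normalization. Beside each stands the authors' FPKM, corrected for length and depth.

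All 9 libraries entered 1 edgeR 4.0.16 fit (R 4.3.3; TMM, filterByExpr, quasi-likelihood, no block), with Benjamini-Hochberg adjustment at 0.05 over 21492 tested genes. A log2 change comes from this fit, its SE is the change over the square root of F, and 95% intervals use the fit's own spread. FPKM is used for levels and ranges. Library pairs differed beyond sampling noise (chi-square per degree of freedom of 3.6 to 10.1 after division by 4), so no pair was counted as a repeat deposit of 1 library; the spread may still be technical. On simulated counts for shIDH1 against control, over 20753 genes, the fit recovered 31.7% of genes changed 1.5-fold, 56.4% of those changed 2-fold and 74.6% of those changed 4-fold. It called 110 genes, 6 of them falsely. Few genes were changed in the simulation, drawn at random over all levels, where 50.1% were called in the data. The recovery therefore does not give the power for the real comparison or for the members.

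The members, the role groups, the other gene lists (other p53 targets, p53 family and upstream regulators, and marker genes of 5 cell types and RNA quality) and the promoter search were chosen with earlier results of these data known. All members are accounted for. Other targets were named if they were CDKN1A, BAX or GDF15, or among the 4 called genes with the largest change in each direction and comparison with control. Family genes were named if called with an absolute log2 change of at least 1. Some results are not reported here. Alternatives were DESeq2 1.42.0, other scalings and filters, counts divided by 4, limma 3.58.1 on log2 FPKM with pseudocounts of 1 and 0.1, a fit of only the groups compared, a replicate block, each library left out, and control replicate 1 as the lone control, which was then assumed to vary like the other groups. Promoter windows came from RefSeq (GRCh38.p14) and exon overlaps from GENCODE 29, in which 10 of the 32 members have the deposited start and end. Figures were drawn with matplotlib 3.10.9.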

Additional observations from a re-analysis of the deposited data

Results flagged for a closer look

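CCNG1, XPC and POLH, called lower with the IDH1 hairpin and higher with the JOSD2 hairpin, were singled out because the effects of the hairpins differed when tested directly. The log2 difference of shIDH1 from shJOSD2 cells was -1.47 for CCNG1 (edgeR adjusted p = 6.73e-09), -0.76 for XPC (edgeR adjusted p = 4.66e-07) and -0.69 for POLH (edgeR adjusted p = 9.66e-06), and in each gene every library of 1 group lay apart from the other. The POLH rise in shJOSD2 cells was the least secure of these calls, as given above. Among the other p53 targets the same kind of difference, with the opposite sign, was found for ATF3 (2.52; edgeR adjusted p = 4.99e-07), EPHA2, an ephrin receptor (1.73; edgeR adjusted p = 4.99e-09), and TRAF4, a signalling adaptor (1.04; edgeR adjusted p = 8.04e-08). EPHA2 stood at 67.7, 72.6 and 66.7 FPKM in control, 109, 120 and 124 in shIDH1 and 40.4, 38.2 and 39.2 in shJOSD2 libraries. The fall of ATF3 in shJOSD2 cells, -0.55 (edgeR adjusted p = 0.0362), did not pass without TMM factors, at -0.40 (edgeR adjusted p = 0.119), or without control replicate 1 or 3 or any shJOSD2 library, with adjusted p between 0.051 and 0.164. With 3 libraries per group, single outlying libraries were not tested for.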

How the results depend on the processing

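Calls held under all alternatives for 23 of 27 members in shIDH1 cells, 17 of 20 in shJOSD2 cells and 19 of 23 between hairpins, and no called member changed sign. Leaving out 1 library at a time gave 23 to 27, 18 to 21 and 21 to 24 called members and medians of 0.45 to 0.53, 0.33 to 0.46 and -0.10 to 0.01. The members' median in shIDH1 cells was 0.39 in limma on log2(FPKM + 1), with or without the filter, and 0.47 with control replicate 1 alone. In shJOSD2 cells it was 0.55 without TMM factors, 0.42 with counts divided by 4, 0.43 with the stricter filter, 0.50, 0.54 and 0.50 in limma (pseudocount 1, pseudocount 0.1, no filter) and 0.33 with the lone control. Between hairpins it was -0.20 without TMM factors and -0.18, -0.19 and -0.18 in limma. In limma on log2(FPKM + 1), genes were called 5616 higher and 3069 lower in shJOSD2 cells, and 3586 and 6835 between hairpins. Fits with the replicate block called 10416, 7823 and 9296 genes and 27, 20 and 23 members. Same-numbered libraries did not deviate together (correlations of -0.018 to 0.0378), so no shared effect of the replicate number was seen. These correlations cannot tell whether same-numbered libraries were prepared together.

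Signs turned only in values that were not called, most of them near 0; the PTP4A1 difference between hairpins, 0.42, was larger and was -0.31 without shIDH1 replicate 2. MDM4 in shIDH1 cells was 0.00 in DESeq2, with RLE factors and with the replicate block, 0.01 with counts divided by 4, the stricter filter and limma with a pseudocount of 0.1, and between -0.20 and 0.16 with 1 library left out. MDM2 there lay between -0.20 and 0.06 with 1 library left out. In shJOSD2 cells without TMM factors, PLK2 was 0.04, TNFRSF10A 0.03, TNFRSF10B 0.02, TP53I11 0.00 and CDKN1A 0.01, and in limma PLK2 was 0.04, TNFRSF10A 0.02, TNFRSF10B 0.02 and CDKN1A 0.00. With 1 library left out, MDM2 there lay between -0.06 and 0.20, TRIAP1 between -0.02 and 0.13 and CYFIP2 between -0.02 and 0.09. With the lone control MDM2 was -0.07, ZMAT3 -0.08 and CYFIP2 -0.10. Between hairpins TNFRSF10C was -0.09 without TMM factors and -0.05, -0.07 and -0.05 in limma, and TP53I3 was -0.03 in both. With 1 library left out, SUSD6 lay between -0.12 and 0.04, PTP4A1 between -0.31 and 0.70 and PANK1 between -0.22 and 0.07. Apart from the effects of scaling and of fewer libraries, the cause was not tested. Depth limits the scarce members: MDM4 and TNFRSF10C lay under 3 FPKM and SPATA18 was not tested.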
